A study of Mus musculus with 6 samples.

Results

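The Gbx2-rich medial thalamus spots were 118 of 13334 tissue spots (0.885%) on 6 coronal brain sections. Each spot of a Visium slide captures the polyadenylated RNA of several neighbouring cells, and its molecules are counted through unique molecular identifiers (UMIs). Spots with at least 1000 UMIs were scored by the summed log of 1 plus UMIs per 10000 for Gbx2, Necab1, Ntng1 and Slc17a6. At or above the pooled 94th percentile of that score (4.87) lay 800 spots, and the 118 members were those with fewer than 3 Prkcd UMIs per 10000. The other 682, with more Prkcd, are called Prkcd-rich spots here, and the remaining 12534 are called other spots. Other spots are all spots below the score threshold, whatever their Prkcd. Their median Prkcd was 0.559 per 10000, but they reached 42.8 and held 44298 Prkcd UMIs. Prkcd-rich spots had a median of 11.4, reached 39.7 and held 13641 Prkcd UMIs. Levels of these 5 genes chose the members, so they are described below without a test.

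The sections were cut from brain hemispheres of female mice homozygous for human APOE3 or APOE4 in place of mouse Apoe (E3 and E4). There was 1 section for each genotype in each of 3 conditions, so no group had a replicate. Young mice were 3 months old and aged mice 24 months old. The E3 5xFAD and E4 5xFAD mice were 12 months old and also carried the 5xFAD transgenes, among them mutant human APP driven by the neuronal Thy1 promoter. The 5xFAD sections therefore differ from the young ones in age as well as in transgene, and these cannot be told apart. In such mixed spots, fewer cells of a type and less RNA per cell cannot be told apart either.

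The thalamus relays and distributes signals to the cerebral cortex. Its medial and midline nuclei contact prefrontal and limbic targets and are rich in the calcium-binding protein calretinin (Calb2), while first-order relay nuclei carry sensory and motor input and express more Prkcd, a protein kinase C. Gbx2 is a homeobox factor of developing thalamic neurons that stays on in medial nuclei of the adult, and Slc17a6 encodes VGLUT2, the vesicular glutamate transporter of thalamic projection neurons.

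The members were spread very unequally over the sections. E3 young held 40 members of 2644 spots (1.51%, exact binomial 95% interval 1.08 to 2.05%), E3 aged 26 of 2140 (1.21%, 0.795 to 1.78%) and E4 5xFAD 27 of 2322 (1.16%, 0.768 to 1.69%). E4 aged held 14 of 1445 (0.969%, 0.531 to 1.62%), E3 5xFAD 8 of 2540 (0.315%, 0.136 to 0.620%) and E4 young 3 of 2243 (0.134%, 0.0276 to 0.390%). The same sections that were poor in members were poor in all high-scoring spots, with 84 in E3 5xFAD and 20 in E4 young against 142 to 251 in the other 4. Of the high-scoring spots, members were 9.52% to 19.0% per section, and these shares had overlapping intervals in all 6 sections. All intervals here cover counting error only. The part that the plane of each section has in these shares was not tested.

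Depth followed the number of spots. The members' summed UMIs were 999649, 366013 and 121501 in the E3 young, E3 aged and E3 5xFAD sections and 44716, 266864 and 545807 in the corresponding E4 sections. Median UMIs per member ran from 13170 in E3 5xFAD to 25397.5 in E3 young. Levels are given below as CPM, the UMIs of a gene scaled to 1000000 UMIs of these sums. In E4 young a single UMI equals 22.4 CPM, so low genes have no usable level there.

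**Figure D1:**
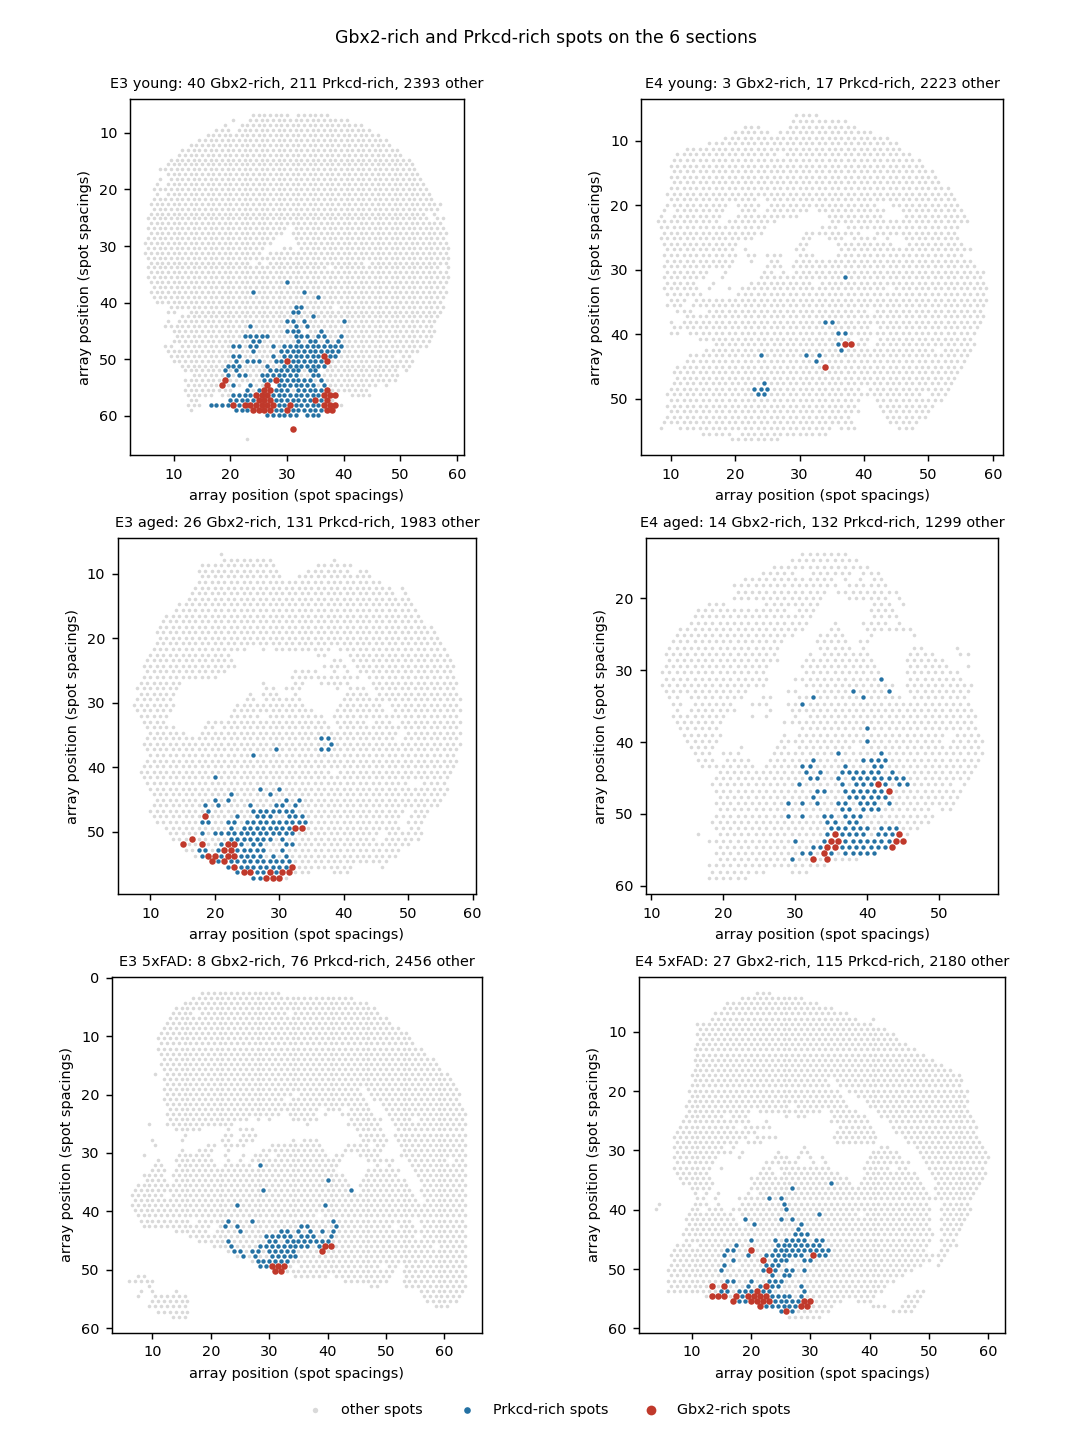
Each panel is 1 section, with array position in spot spacings on both axes, Gbx2-rich spots in red, Prkcd-rich spots in blue and other spots in grey. Most Gbx2-rich spots lie along the lower margin of the Prkcd-rich field in 5 sections, while the 3 of E4 young lie inside the tissue.

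The deposited tissue masks and the matrices did not cover the same spots. Of the mask spots, 75.9% to 86.0% had a barcode in 5 sections and 99.9% in E3 5xFAD, and 432 to 672 barcodes of those 5 matrices, 6 in E3 5xFAD, lay outside the mask. Barcodes outside the mask had medians of 466 to 1622 UMIs in the 5 sections against 10081.5 to 15360.0 UMIs inside it. It is not known whether 1 run made both, so the section shares above and the edge distances below hold for the deposited masks only. No array neighbour of a member that the mask marks lacked a barcode. With the mask ignored, which was tried after seeing the data, the same rule gave 141 members, 116 of the 118 among them and 25 outside the mask.

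Within the masks most members lay near the rim. Their median distance from the edge of the tissue mask was 1.73 spot spacings in E3 young, E3 aged and E3 5xFAD, 2.32 in E4 aged and 2.00 in E4 5xFAD, while the Prkcd-rich spots of these sections had medians of 3.00 to 8.54. In E4 young the members lay 7.21 spacings from the edge, and that section had no spot among the top 1% of a habenula gene list, a landmark that the other 5 sections held in 12 to 46 spots. Of the members' neighbours on the array, 51.8%, 32.8% and 47.7% were members in the young, aged and 5xFAD sections of E3 and 11.1%, 35.5% and 35.5% in those of E4. In 5 sections the members thus lay by the edge, in sections that hold habenula spots, whereas the E4 young members are Gbx2-rich spots without that position.

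The 4 scored genes and Prkcd behaved as the rule requires. Gbx2 (chromosome 1: 89927956-89931179, mm10, minus strand) read 212, 183 and 206 CPM in the young, aged and 5xFAD sections of E3 and 112, 146 and 132 CPM in those of E4. All 3 E3 values were above all 3 E4 values, and the E4 young value rested on 5 UMIs. Other spots held Gbx2 at 4.12 to 7.41 CPM and Prkcd-rich spots at 114 to 156 CPM, so the Gbx2 level of members was above that of Prkcd-rich spots in the 3 E3 sections and slightly below it in the 3 E4 sections. At least 1 Gbx2 UMI was found in 106 of the 118 members (89.8%), in 85.3% of Prkcd-rich spots and in 6.57% of other spots. With every spot thinned to 5000 UMIs these shares became 56.0%, 49.4% and 2.90%, with 3 members left out as too shallow. The 12 members without a Gbx2 UMI entered through the other 3 genes.

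Slc17a6 (chromosome 7: 51622006-51671119) had 470 CPM in E4 young and 654 to 863 CPM in the other 5 sections, against 81.8 to 140 CPM in other spots. Necab1 (chromosome 4: 14952245-15149794), a neuronal calcium-binding protein, had 514 to 685 CPM, and Ntng1 (chromosome 3: 109780040-110144011), netrin-G1, an axonal adhesion protein of thalamocortical fibres, had 362 to 604 CPM. Prkcd (chromosome 14: 30595354-30626210) had 134 to 189 CPM in members and 883 to 1394 CPM in Prkcd-rich spots. At the thresholds the split was gradual. The lowest member score was 4.87 and the highest score just below it among low-Prkcd spots was 4.86, both in E4 5xFAD. The highest Prkcd among members was 2.98 per 10000 and the lowest among Prkcd-rich spots 3.01, and 42 members stood at 2 or more while 49 Prkcd-rich spots stood below 4.

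Leading genes outside the rule marked the members as thalamic, some of them genes of thalamic neurons, although the labels also name non-neuronal brain cells as the material. General synaptic genes were not raised as a list. Of 26 synaptic vesicle and release genes, 6 were higher and 11 lower than in other spots in at least 5 sections. Over 8072 genes with a mean of at least 20 CPM, 26.7% were higher and 21.6% lower. Ranked by the lowest of the 6 log2 ratios of members over other spots, the leading genes that the rule did not use were Slitrk6, Tcf7l2, Shox2, Maob, Calb2, Foxp2, Fbln5 and Prkch. Tcf7l2, the Wnt effector that keeps adult thalamic neurons in their identity, had 718, 781 and 626 CPM in the young, aged and 5xFAD sections of E3 and 783, 776 and 630 CPM in those of E4. Every one of these was above the 69.6 to 124 CPM of other spots, with log2 ratios of 2.65 to 3.24. Shox2, a homeobox factor of thalamic neurons, had 125 to 186 CPM against 14.0 to 30.6 CPM. Slitrk6, a synaptic adhesion protein, had 49.4 to 86.0 CPM against 5.45 to 10.48 CPM. Foxp2, a forkhead factor, had 93.4 to 139 CPM against 14.3 to 27.5 CPM. Maob, monoamine oxidase B, had 89.5 to 165 CPM against 18.4 to 25.4 CPM. Fbln5, an extracellular fibulin, and Prkch, another protein kinase C, had lowest log2 ratios of 1.91 and 1.76, with only 1 and 2 UMIs in E4 young.

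Calb2 (chromosome 8: 110137502-110168210) separated the members from both neighbours. It had 810, 1011 and 1062 CPM in the young, aged and 5xFAD sections of E3 and 447, 487 and 852 CPM in those of E4. Prkcd-rich spots had 164 to 337 CPM and other spots 61.3 to 110 CPM, so members were highest in every section, by the smallest margin in E4 young. Calbindin (Calb1) had 201 to 487 CPM in members, 330 to 394 CPM in Prkcd-rich spots and 153 to 184 CPM in other spots, and did not separate members from Prkcd-rich spots.

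Of 17 pan-thalamic genes, 14 were higher than in other spots in at least 5 of 6 sections. Against Prkcd-rich spots 4 of the 17 were higher and 11 lower in as many sections. Their sums were 2379 to 2906 CPM in members and 3309 to 4044 CPM in Prkcd-rich spots. Of 10 first-order relay genes 8 were lower than in Prkcd-rich spots in at least 5 sections. Of 8072 genes with a mean of at least 20 CPM, 26.7% were higher and 21.6% lower than in other spots in as many sections, and 17.3% were higher and 19.0% lower than in Prkcd-rich spots. The relay genes include Ramp3, a receptor accessory protein, which had 106 to 279 CPM in members against 330 to 480 CPM in Prkcd-rich spots. The 20 medial and midline genes summed to 2696, 2770 and 2601 CPM in the young, aged and 5xFAD sections of E3 and 1655, 1896 and 2798 CPM in those of E4. Against 1897 to 2137 CPM in Prkcd-rich spots, members were higher in 4 sections and lower in both E4 young and E4 aged. Gene by gene the medial list was divided, with 8 of 20 higher and 6 lower than in other spots in at least 5 sections, and 8 higher and 1 lower than in Prkcd-rich spots. Genes of the opioid, orexin and dopamine receptors on that list (Oprm1, Hcrtr1, Hcrtr2, Drd3) were at 0 to 16.5 CPM everywhere, which is too low to mark any spot. The 12 habenula genes summed to 67.1 to 160 CPM, below other spots in all 6 sections. Of the 13 genes of GABAergic reticular and incertal neurons, 12 were below other spots in at least 5 sections, as were 10 of 13 cortical genes. Calb2 led the members' medial genes, and none of these counts was tested, because the members were chosen on these libraries.

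**Figure D2:**
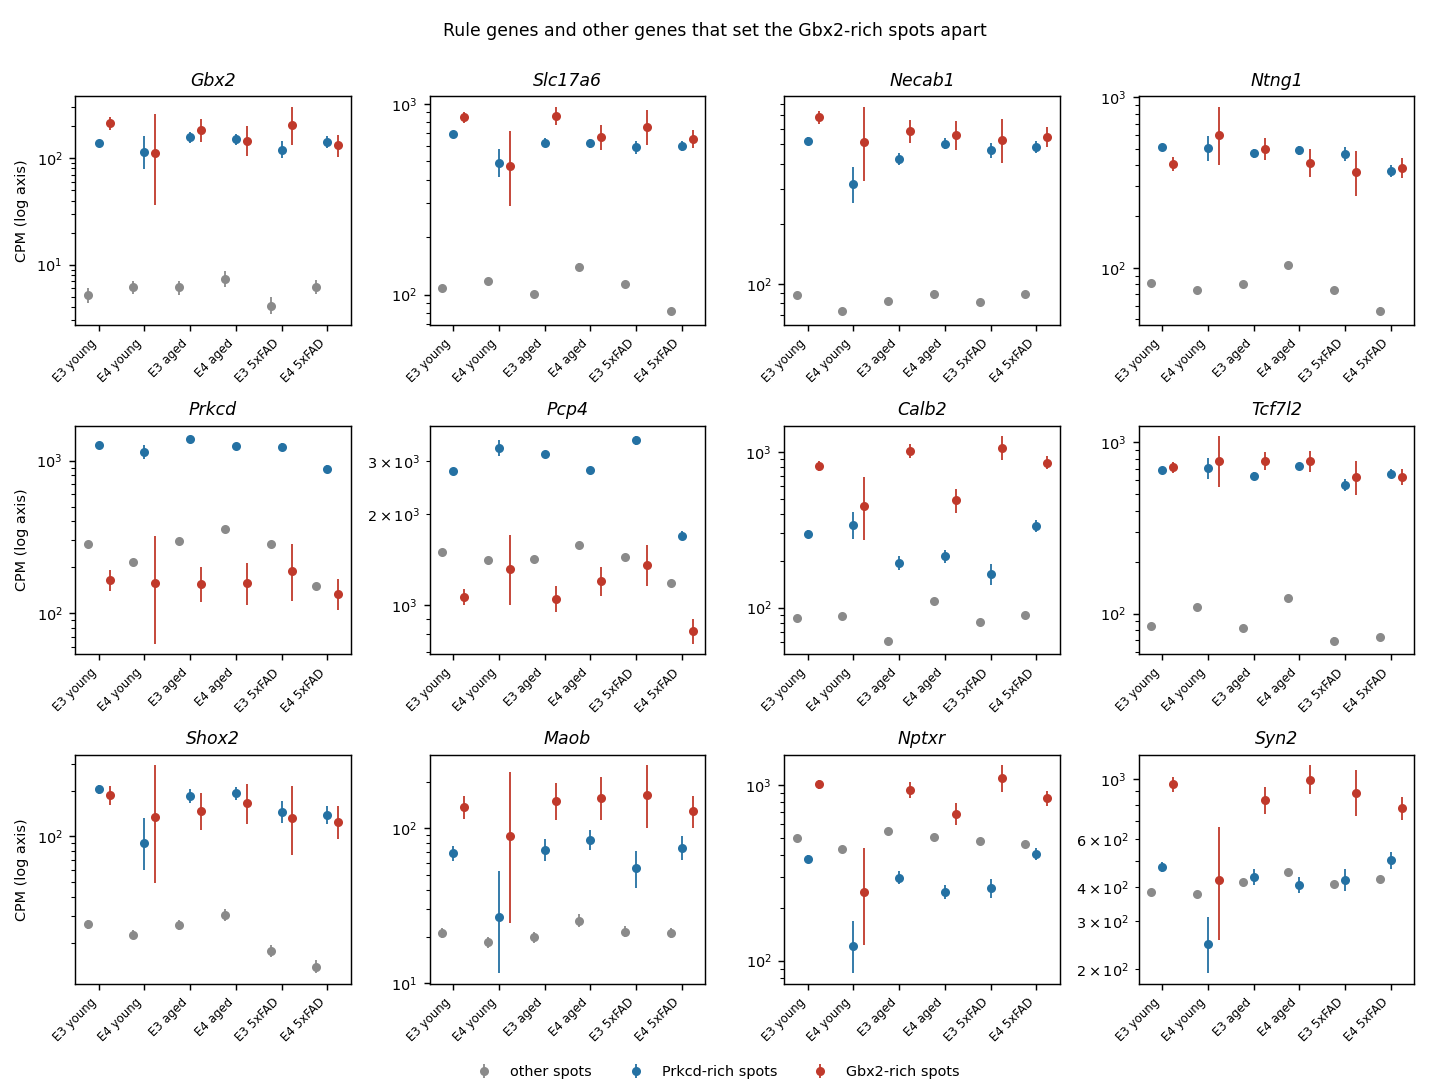
CPM on a log axis in each of the 6 sections, with exact 95% Poisson intervals, for Gbx2-rich spots (red), Prkcd-rich spots (blue) and other spots (grey). Calb2, Maob, Nptxr and Syn2 sit higher in the Gbx2-rich than in the Prkcd-rich spots of every section, and Pcp4 sits lower.

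Against Prkcd-rich spots, some genes differed the same way in all 6 sections. They were chosen after their values were seen. Nptxr, a receptor for neuronal pentraxins at excitatory synapses, had 1012, 937 and 1095 CPM in the members of E3 young, aged and 5xFAD and 379, 298 and 258 CPM in their Prkcd-rich spots. In the E4 sections, in the same order, it had 246, 686 and 841 CPM against 121, 247 and 407 CPM. The ratio was above 2 in every section, although in E4 young both levels were far below those of the other sections. Syn2, synapsin II of the synaptic vesicle, had 425 to 993 CPM against 246 to 501 CPM. The 26 synaptic vesicle and release genes were divided, with 8 higher and 12 lower than in Prkcd-rich spots in at least 5 sections. Fbln1, an extracellular matrix fibulin, and Anxa2, a membrane-binding annexin, had median log2 ratios of 1.63 and 1.71. Pcp4, a calmodulin regulator, had 819 to 1358 CPM in members and 1697 to 3500 CPM in Prkcd-rich spots. Pvalb, parvalbumin, was at 36.6 to 49.4 CPM with no UMI in E4 young, against 60.6 to 155 CPM. Cplx1, a complexin of fast release, was at 268 to 451 CPM against 700 to 1006 CPM.

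Among the metabolic lists, the cholesterol synthesis genes stood out as higher. Their 23 members summed to 2225, 2153 and 2453 CPM in the Gbx2-rich spots of E3 young, aged and 5xFAD and 1789, 1949 and 1905 CPM in those of E4. These sums were above those of Prkcd-rich spots (1292 to 1758 CPM) and of other spots (1215 to 1596 CPM) in all 6 sections. Of the 23 genes, 17 were higher than in other spots in at least 5 sections (73.9%), against the 26.7% of all 8072 genes. Hmgcs1, which makes HMG-CoA, had 266 to 382 CPM against 154 to 214 CPM in other spots, and Fdft1, squalene synthase, 134 to 263 CPM against 94.6 to 136 CPM. Glycolysis genes and nuclear genes of oxidative phosphorylation did not stand apart in this way, with 30.0% and 12.5% of genes higher in at least 5 sections. Of the 30 myelin genes, 4 were higher and 6 lower than in other spots in at least 5 sections, and 22 were lower than in Prkcd-rich spots and none higher, against 19.0% lower over all genes. In E4 young their sum in members was 12792 CPM, above the 9249 CPM of its Prkcd-rich spots.

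Members were also compared by their position along the rim. In the 4 sections that held both kinds, they were split by whether the nearest landmark was a habenula spot or a hypothalamus spot, the top 1% of spots for those gene lists. This gave 25 and 15 members in E3 young, 19 and 7 in E3 aged, 10 and 4 in E4 aged, and 15 and 12 in E4 5xFAD. All 8 members of E3 5xFAD were nearer to habenula spots, and E4 young could not be split. Landmark spots were unequal in number, with 35, 13, 25 and 46 habenula spots and 6, 23, 33 and 3 hypothalamus spots in the 4 split sections in that order. E3 5xFAD had 12 habenula and 68 hypothalamus spots. The border between the sides was thus not set alike in each section. Of 3648 genes that reached 50 CPM on at least 1 side in every section, 6.91% were higher and 7.46% lower on the habenular side in all 4, where even signs would give 6.25% each way. The genes below were chosen from these after their values were seen and were not tested, so they do not show that the sides differ as a whole.

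Calb2, for calretinin, had 1154 CPM near the habenula and 349 near the hypothalamus in E3 young, 1113 and 588 in E3 aged, 645 and 200 in E4 aged, and 929 and 773 in E4 5xFAD. It was higher on the habenular side in all 4 sections, with overlapping intervals only in E4 5xFAD. Nptxr read 1295 against 633, 1042 against 504, 796 against 485 and 1204 against 468 CPM. Necab2, a calcium-binding partner of metabotropic receptors, Htr2c, a serotonin receptor, and Rab3b, a vesicle GTPase, were higher on the habenular side in all 4 sections as well. Spon1, the extracellular protein F-spondin, went the other way, with 101 against 197, 81.5 against 294, 110 against 285 and 86.8 against 234 CPM. Cited2, a transcriptional co-regulator, was also lower on the habenular side in all 4 sections. Gbx2 itself read 220 against 202, 190 against 154, 151 against 137 and 159 against 104 CPM, higher on the habenular side in all 4 with overlapping intervals in each.

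**Figure D3:**
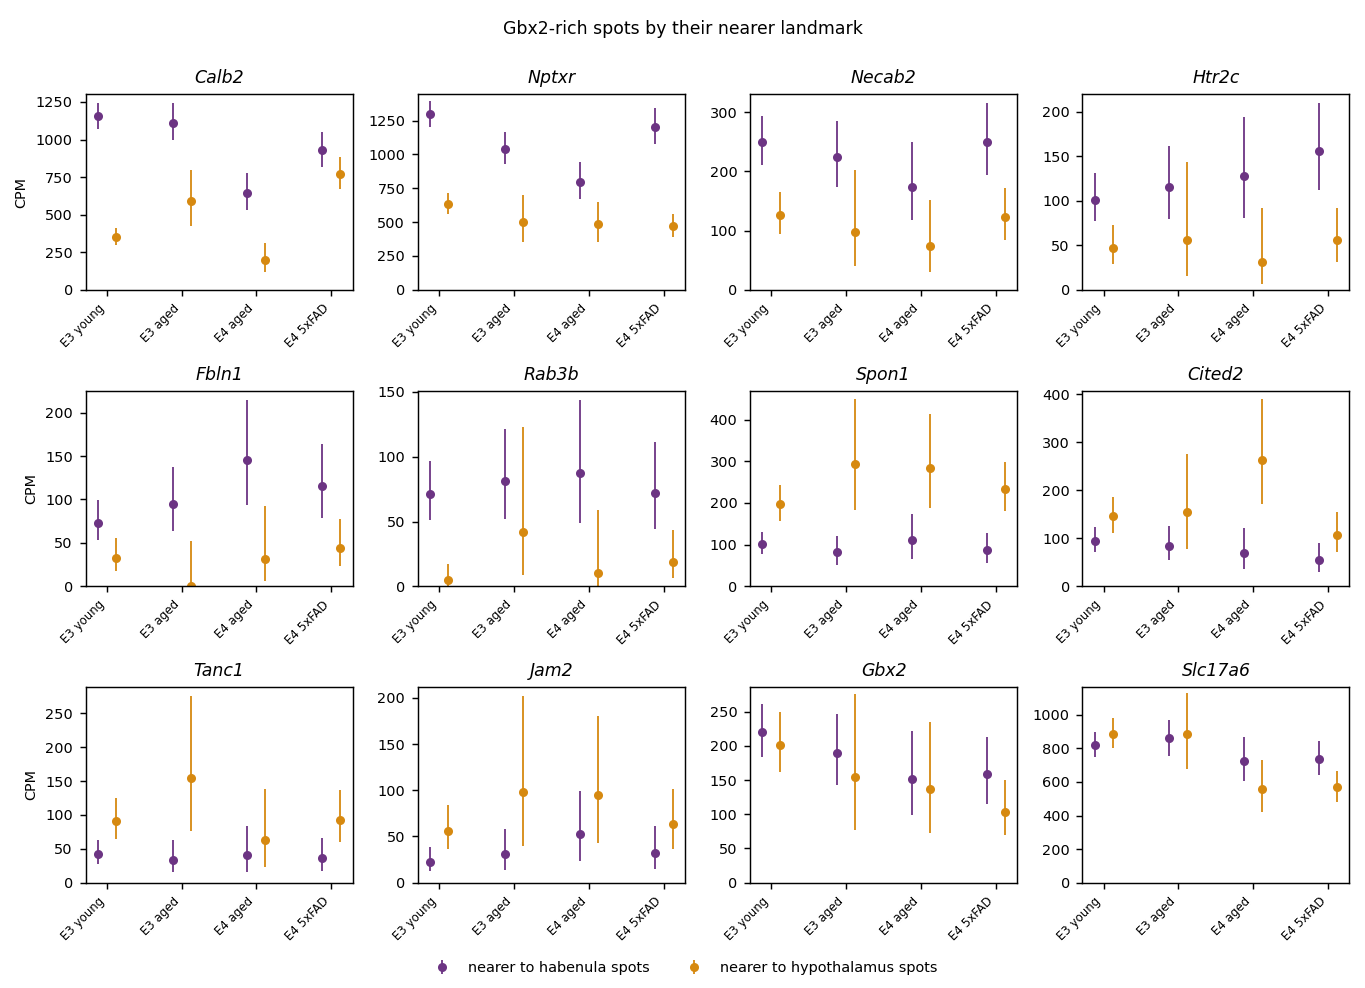
CPM with exact 95% Poisson intervals in the 4 sections that hold both kinds of Gbx2-rich spot, nearer to habenula spots (purple) or nearer to hypothalamus spots (orange). Calb2, Nptxr, Necab2, Htr2c, Fbln1 and Rab3b are higher on the habenular side of each section, Spon1, Cited2, Tanc1 and Jam2 are lower, and the Gbx2 intervals of the 2 sides overlap in each section.

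For genotype and condition, the members' counts were summed per section and fitted with edgeR's quasi-likelihood test on genotype plus condition. The 6 sums leave 2 residual degrees of freedom for each gene. Each gene's spread between these sections around additive effects is therefore moderated with the spread of all genes tested. The p-values rest largely on that shared spread and only in part on the gene's own. E4 against E3 called 7 of 6657 genes (0.105%) at an adjusted p under 0.05, of which 4 rose (0.0601%) and 3 fell (0.0451%), with 329 at an unadjusted p under 0.05. DESeq2 called none. Without E4 young 26 genes were called and without E3 young 28, the 7 among them in both cases, and without any other section 7 to 9.

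The serpin Serpina3n (chromosome 12: 104406729-104414329), an acute-phase protease inhibitor that astrocytes release, rose in E4. It had 6.0 and 44.7 CPM in E3 and E4 young, 27.3 and 89.9 CPM in the aged pair, and 0 and 180 CPM in the 5xFAD pair. Each E4 section was above its E3 partner, on 2 UMIs in E4 young. The fitted log2 change was 2.63 ± 0.46 (SE), adjusted p = 0.00367. Without either 5xFAD section it was 1.94 or 1.96 and no longer called. Other spots also had more in E4 within each condition, with 20.2 and 121 CPM in young, 37.1 and 168 CPM in aged, and 74.1 and 156 CPM in 5xFAD.

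Enpp2 (chromosome 15: 54838901-54952892), the lysophospholipase autotaxin of choroid plexus and oligodendrocytes, and Kl (chromosome 5: 150952607-150993817), klotho of the choroid plexus, also rose in E4. Enpp2 had 262 and 291 CPM in E3 and E4 young, 95.6 and 1353 CPM in the aged pair, and 148 and 784 CPM in the 5xFAD pair. The E4 aged and E4 5xFAD sections stood apart, and the young pair overlapped. The fitted log2 change was 2.37 ± 0.32, adjusted p = 0.000118. It was 1.323 without E3 aged and 1.335 without E4 aged, nearly the same estimate, and the call was lost only without E3 aged. Kl had 5.00, 22.4, 2.73, 63.7, 0 and 71.5 CPM in the same order and a log2 change of 3.70 ± 0.74, adjusted p = 0.0175, lost without any 1 of the 4 aged and 5xFAD sections.

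Enpp2 and Kl are themselves among the 8 choroid plexus marker genes, whose sum was highest in E4 aged and E4 5xFAD. These genes summed to 2321 and 537 CPM in E3 and E4 young, 254 and 13228 CPM in the aged pair, and 428 and 7446 CPM in the 5xFAD pair, with 0, 3, 4, 0, 5 and 0 of them at no UMI in that order. In the young pair the sum was lower in E4, while Enpp2 and Kl were not. Most of the sum in E4 aged and E4 5xFAD was Ttr. Ttr, the choroid's transthyretin, was at 11601 CPM in E4 aged and 6460 CPM in E4 5xFAD against 128 to 2018 CPM in the other 4 sections. The median distance from members to the nearest choroid landmark spot was 3.05 spacings in E4 aged and 6.93 in E4 5xFAD, against 14.5 to 30.2 in the other 4 sections. The part of choroid plexus RNA in the Enpp2 and Kl results was not tested.

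Tnnt1 (chromosome 7: 4504570-4516382), the troponin T of slow skeletal muscle, was the fourth gene that rose. It had 30.0 and 134 CPM in E3 and E4 young, 21.9 and 105 CPM in aged, and 8.23 and 51.3 CPM in 5xFAD. All 3 E4 sections were above all 3 E3 sections, with a log2 change of 2.26 ± 0.42 and an adjusted p of 0.00714, lost without either aged section. In other spots Tnnt1 in E4 against E3 was 48.3 against 15.9 CPM in young and 39.7 against 15.3 CPM in aged, and 17.3 against 17.5 CPM in 5xFAD. In Prkcd-rich spots, fitted the same way, 4 of 11525 genes were called for E4 against E3, and the 2 that rose were Tnnt1 and Serpina3n. With Prkcd-rich spots thinned to 5000 UMIs, Tnnt1 was found in 60.0% against 23.2% in young, 31.5% against 28.1% in aged and 37.8% against 22.0% in 5xFAD.

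Of the genes that fell, Lrrc17 (chromosome 5: 21543559-21575904), a secreted leucine-rich repeat protein, had 321 and 246 CPM in E3 and E4 young, 434 and 184 CPM in aged, and 667 and 163 CPM in 5xFAD. E4 was lower in each pair, by a log2 change of -1.44 ± 0.23 (adjusted p = 0.00121), lost without either 5xFAD section. Other spots were lower in E4 too, at 448 and 286, 332 and 222, and 514 and 184 CPM. Lypd1 (chromosome 1: 125867622-125913101), a Ly6-family modulator of nicotinic receptors, had 55.0 and 0 CPM, 65.6 and 30.0 CPM, and 230.5 and 44.0 CPM in the same pairs, with a log2 change of -2.01 ± 0.37 (adjusted p = 0.00714), lost without either 5xFAD section. The third, Gm47283, a predicted gene annotated on chromosome Y: 90784738-90816464, had 22.0, 60.1 and 90.5 CPM in E3 young, aged and 5xFAD and 0 in E4 aged and E4 5xFAD, while the young pair ran slightly the other way on 1 UMI. Its log2 change ran from -8.19 to -3.79 with 1 section left out, and the call was lost without E3 aged, E3 5xFAD or E4 5xFAD. Other spots had 41.0, 79.0 and 99.8 CPM of Gm47283 in E3 and 1.34 to 3.26 CPM in E4. The Y-linked gene Ddx3y had no UMI in the members of any section.

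Human APOE and calretinin did not pass for genotype. Human APOE had 757 and 1096 CPM in E3 and E4 young, 773 and 1087 CPM in aged, and 700 and 1220 CPM in 5xFAD, higher in E4 in 3 of 3 pairs (hAPOE, log2 change 0.63 ± 0.18, adjusted p = 0.413). Calb2 was lower in E4 in 3 of 3 pairs (log2 change -0.69 ± 0.19, adjusted p = 0.342). Among the lists, no gene of the 15 pan-thalamic, 18 firing channel, 23 receptor or 24 synaptic release genes tested was called. Of the receptor genes 21 of 23 and of the release genes 23 of 24 had negative fitted changes, with medians of -0.39 and -0.20 against -0.02 over all genes tested, of which 48.0% were positive. The glial lists had mostly positive changes. Positive were 24 of 26 myelin genes (median 0.40, Enpp2 called) and 20 of 22 homeostatic astrocyte genes (median 0.26, none called). In Prkcd-rich spots the same lists leaned the same way. There 19 of 27 receptor and 23 of 26 release genes were negative (medians -0.09 and -0.11). Positive were 21 of 30 myelin and 17 of 22 astrocyte genes (medians 0.08 and 0.11), against 51.1% of all genes tested there. The part of glial content in the neuronal lists was not tested.

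**Figure D4:**
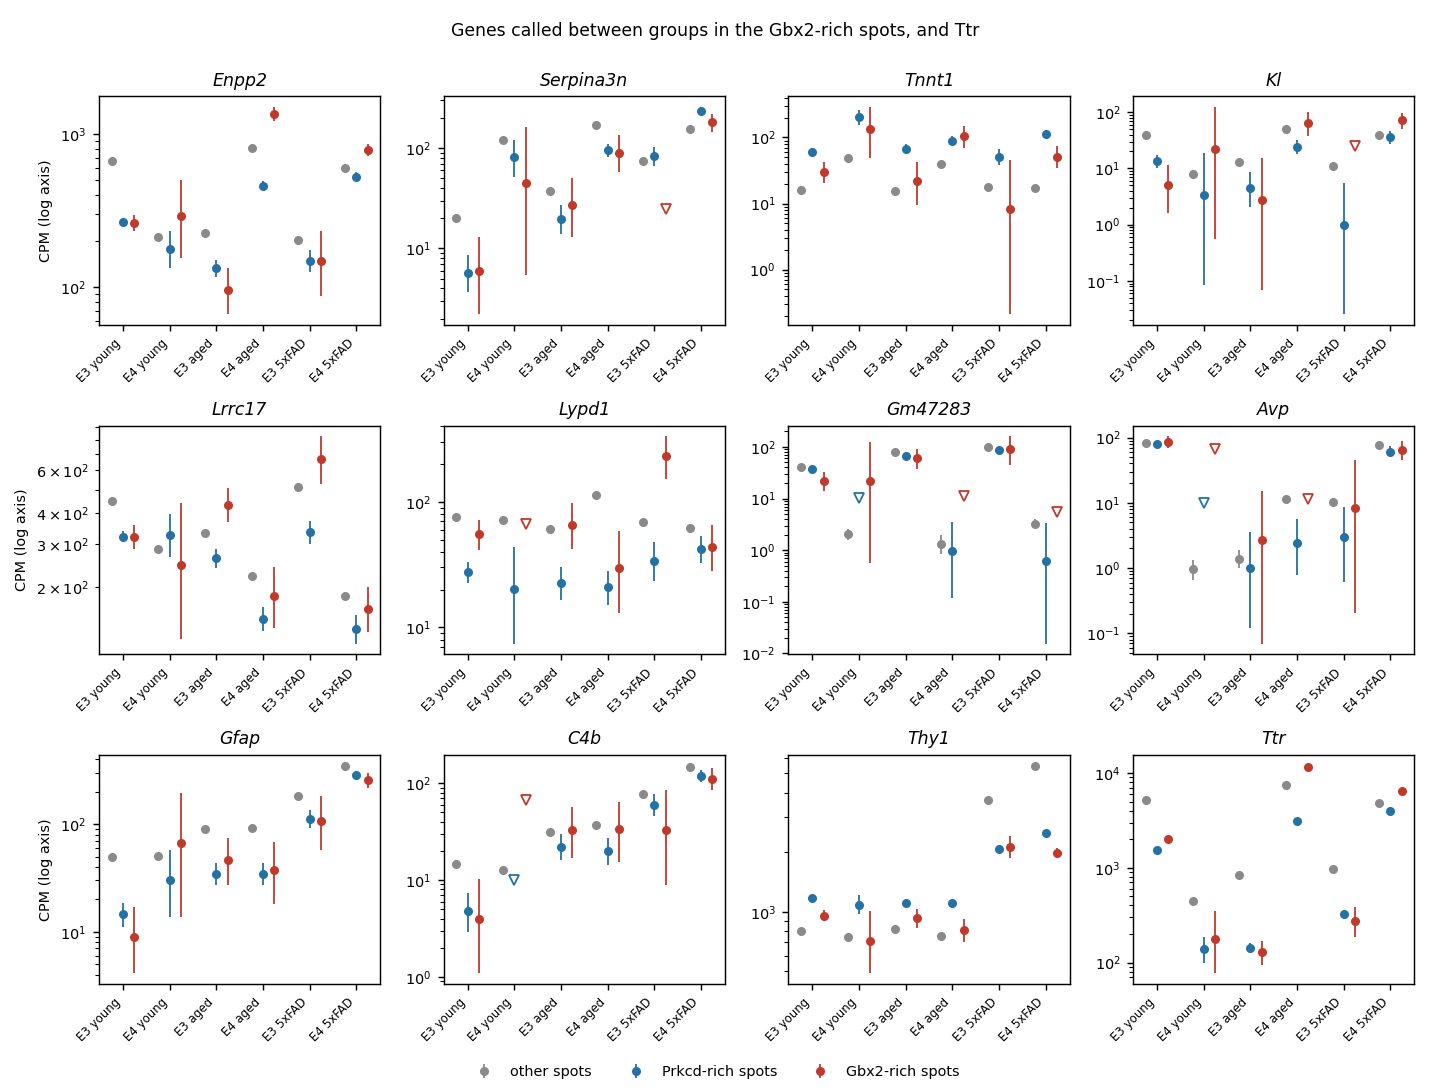
CPM on a log axis by section for the 11 genes called between groups and for Ttr, with exact 95% Poisson intervals, in Gbx2-rich spots (red), Prkcd-rich spots (blue) and other spots (grey). Open triangles mark sums with no UMI, drawn at the level of 3 UMIs. Serpina3n, Lrrc17 and Gm47283 differ between genotypes in other spots too, while Enpp2, Kl and Ttr are highest in the Gbx2-rich spots of E4 aged and E4 5xFAD.

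Aged against young called 1 of 6657 genes (0.015%), with 133 at an unadjusted p under 0.05 and none by DESeq2. The gene was Avp (chromosome 2: 130580620-130582554), vasopressin of hypothalamic neurons. It had 85.0 and 0 CPM in E3 and E4 young, 2.73 and 0 CPM in the aged pair, and 8.23 and 64.1 CPM in the 5xFAD pair. The level was high in E3 young and E4 5xFAD only, and their Prkcd-rich spots (78.7 and 60.8 CPM) and other spots (82.0 and 76.6 CPM) were at the same height. The log2 change of -5.38 ± 0.92 (adjusted p = 0.00905) became 3.01 without E3 young. Leaving out E4 young gave 7 calls with Avp among them, and leaving out any other section 3 to 6.

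None of the other genes ranked by p passed in the aged comparison. C4b, a complement component, had 4.0 and 32.8 CPM in E3 young and E3 aged and 0 and 33.7 CPM in E4 young and E4 aged (log2 change 2.71 ± 0.76, adjusted p = 0.9996). Fos, an immediate early gene, had 51.0 and 123 CPM in E3 and 112 and 93.7 CPM in E4, so the genotypes ran opposite ways. Olig1, of the oligodendrocyte lineage, had 126 and 205 CPM in E3 and 134 and 210 CPM in E4 (log2 change 0.72 ± 0.25). Sphkap, a kinase anchor, had 147 and 224 CPM in E3 and 89.5 and 176 CPM in E4 (0.78 ± 0.26). The other genes of the 10 with the lowest p, Tk2, Stim2, Vwc2, Mamld1 and Aifm3, had 0 to 6 UMIs in E4 young. No gene of the 21 microglial disease-associated genes tested was called, and their median change was 0.06 against 0.01 over all genes tested.

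5xFAD against young called 4 of 6657 genes, all higher (0.0601%), with 214 at an unadjusted p under 0.05 and 1 by DESeq2. Leaving out E4 young gave 18 calls with the 4 among them and leaving out E3 5xFAD gave 16 with 3 among them. Leaving out E3 young gave 8 with 1 among them, leaving out E4 5xFAD gave 3 with 1 among them, and leaving out either aged section gave 2, both among the 4.

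Gfap (chromosome 11: 102887336-102900912), the intermediate filament of reactive astrocytes, had 9.0 CPM in E3 young and 107 in E3 5xFAD, and 67.1 in E4 young and 256.5 in E4 5xFAD. Both 5xFAD sections were above all other sections, although E4 young rested on 3 UMIs. The log2 change was 3.50 ± 0.53 (adjusted p = 0.000766), and the call was lost without E3 young (1.93) and without E4 5xFAD. C4b (chromosome 17: 34728380-34743882) had 4.0, 32.9, 0 and 112 CPM in the same order (log2 change 3.85 ± 0.74, adjusted p = 0.0225), and its call was lost without E3 young, E3 aged or E4 aged and could not be tested without E4 5xFAD. Lypd1 had 55.0 and 230.5 CPM in E3 and 0 and 44.0 CPM in E4 (1.91 ± 0.40, adjusted p = 0.0473), and without the 8 spots of E3 5xFAD the change was 1.10 and not called. It was also not called without E3 young, E3 aged or E4 aged.

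Thy1 (chromosome 9: 44043384-44048579), a neuronal surface protein whose promoter drives the 5xFAD transgenes, had 954, 926 and 2123 CPM in the young, aged and 5xFAD sections of E3 and 716, 806 and 1984 CPM in those of E4. Both 5xFAD sections were above the other 4 by more than their counting intervals. The log2 change was 1.28 ± 0.22 (adjusted p = 0.00684), not called without E4 5xFAD (1.205, adjusted p = 0.798). Whether Thy1 UMIs come from the mouse gene or from the transgene cassette was not tested.

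Microglial genes were uneven between E3 5xFAD and E4 5xFAD. Trem2, the lipid receptor of activated microglia, had 32.9 CPM in E3 5xFAD, on 4 UMIs, and 165 CPM in E4 5xFAD against 11 to 30.1 CPM in the other sections (log2 change 2.67 ± 0.61, adjusted p = 0.0945). C1qb, a complement starter, had 132 and 271 CPM against 59.0 to 73.8 CPM (1.62 ± 0.36, adjusted p = 0.0732), and Ctsd, the lysosomal protease cathepsin D, 560 and 1204 CPM against 344 to 470 CPM (1.07 ± 0.25, adjusted p = 0.0945). Mbp, myelin basic protein, went the other way, at 1356 and 872 CPM in E3 and 3422 and 1187 CPM in E4 (-1.08 ± 0.23, adjusted p = 0.0712). None of these passed, but without E4 young Trem2, C1qb and Ctsd did, with adjusted p of 0.0122, 0.0294 and 0.0127. Of the 21 disease-associated genes tested in members none was called, 18 had positive changes, and their median was 0.42 against 0.02 over all genes tested. Of 5 reactive astrocyte genes tested, 2 were called (Gfap and C4b) and the median change was 2.08, and of 4 complement genes 1 was called (C4b) with a median of 1.71. All 5 homeostatic microglia genes tested had positive changes, with a median of 1.13 and none called. In the Prkcd-rich spots, fitted the same way with 11525 genes tested, 67 genes (0.581%) were called, 63 of them higher (0.547%), 21 of the 33 disease-associated genes among them. The test of the difference between the regions, given below, called none of those genes.

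Cst7, cystatin F of plaque-associated microglia, was named after its values were seen. It had no UMI in the members of the young and aged sections, 1 in E3 5xFAD and 48 in E4 5xFAD, or 8.23 and 87.9 CPM. In E3 5xFAD the members were below other spots of that section (56.0 CPM) by a log2 ratio of -2.77 with an exact interval of -8.07 to -0.29, while in E4 5xFAD the ratio was -0.08 (-0.52 to 0.33). With 1 section per group these ratios describe 2 libraries.

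The human APP transgene was scarce in the members. Its transcript (hAPP) had no UMI in the 121501 of E3 5xFAD, which allows up to 24.7 CPM, and 7 UMIs or 12.8 CPM in E4 5xFAD. Other spots of these sections had 65.0 and 96.8 CPM and Prkcd-rich spots 16.0 and 20.7 CPM. In E4 5xFAD the members were 7.55-fold below other spots (log2 ratio -2.92, exact interval -4.23 to -1.87), and their ratio to Prkcd-rich spots was -0.69 (-2.11 to 0.51). hAPP had no UMI in the members of the young and aged sections, and the labels give those mice no 5xFAD transgene. Thy1 was also lower than in other spots, by log2 ratios of -0.79 and -1.46, whereas mouse App differed little, by 0.22 and 0.03.

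**Figure D5:**
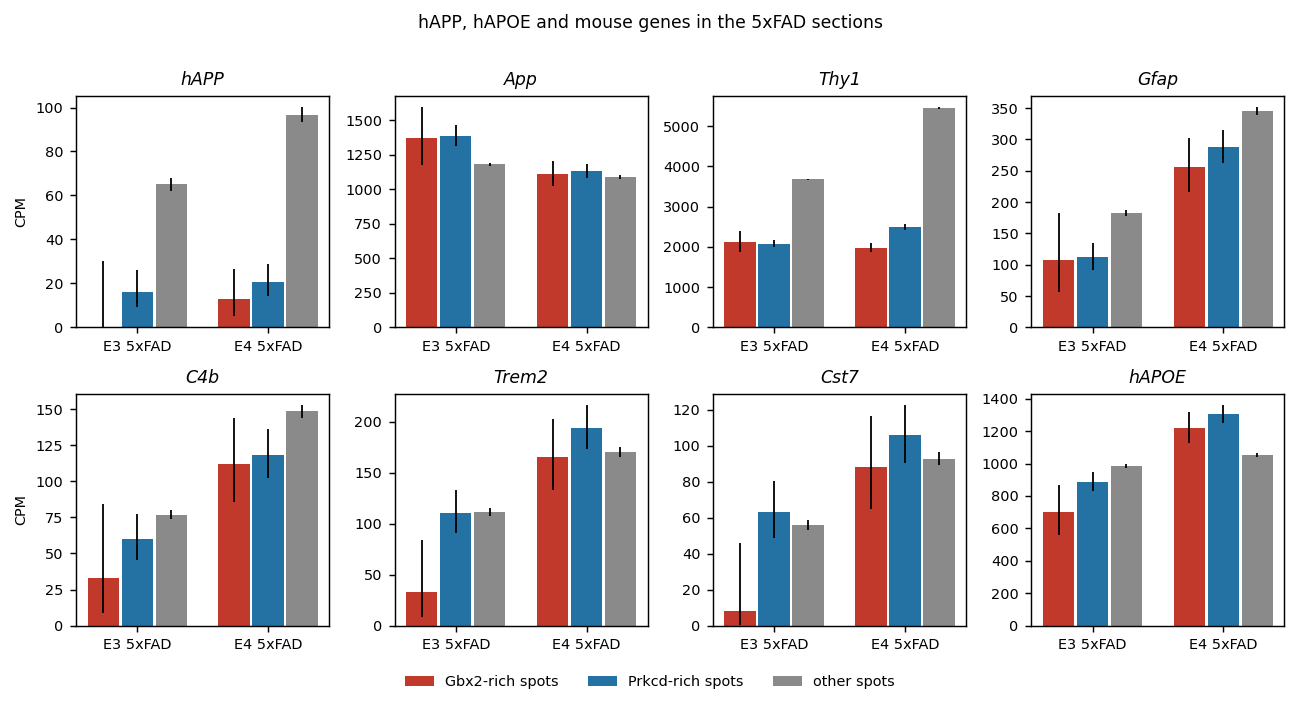
CPM with exact 95% Poisson intervals in the E3 5xFAD and E4 5xFAD sections, for Gbx2-rich spots (red bars), Prkcd-rich spots (blue) and other spots (grey). hAPP and Thy1 are lower in Gbx2-rich and Prkcd-rich spots than in other spots. Trem2 and Cst7 are low in the Gbx2-rich spots of E3 5xFAD but not of E4 5xFAD.

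Whether genotype or condition acted differently in members and in Prkcd-rich spots was tested in 1 fit of 12 sums with the section as a block. The p-values of this fit rest almost wholly on spread shared over all genes tested, more so than in the member fit. A gene's own spread between sections has next to no part in them. For E4 against E3 this called 6 of 10392 genes (0.0577%), with 364 at an unadjusted p under 0.05. For aged and for 5xFAD against young it called 2 each (0.0192%), with 237 and 302 at an unadjusted p under 0.05. DESeq2 called none in any of the 3. Without E4 young the 3 counts were 6, 1 and 2, with 6, 1 and 1 of these genes among them. In this fit a positive value means that the change was more positive in the members.

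Calb2 was called in all 3. Between E3 and E4 it went from 810 to 447 CPM in young members, 1011 to 487 CPM in aged and 1062 to 852 CPM in 5xFAD, and in Prkcd-rich spots from 296 to 337, 194 to 214 and 164 to 334 CPM. Members were lower in E4 and Prkcd-rich spots higher in each of the 3 pairs, a log2 difference of -1.24 ± 0.18 (adjusted p = 1.67e-07). It stayed between -1.27 and -1.22 with any 1 section left out, but was not called without E3 aged, E4 aged or E3 5xFAD. The differences for aged (0.96 ± 0.22, adjusted p = 0.0424) and for 5xFAD (1.19 ± 0.23, adjusted p = 0.00161) were each kept only when E4 young was the section left out. The share of members on the habenular side also differed, at 25 of 40, 19 of 26 and 8 of 8 in the young, aged and 5xFAD sections of E3 and 10 of 14 and 15 of 27 in the aged and 5xFAD sections of E4. These shares rest on the unequal landmark numbers given above, and their part in the Calb2 result was not tested. On the habenular side alone Calb2 was 1113 CPM in E3 aged and 645 CPM in E4 aged, but 1062 CPM in E3 5xFAD and 929 CPM in E4 5xFAD.

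The other region differences involved choroid, blood and low genes. For E4 against E3 the difference was positive for Enpp2 (1.296 ± 0.235) and Ttr (1.299 ± 0.22), beside the choroid distances given above. Ttr itself was not called in the members (adjusted p = 0.174) and went from 2018 to 179 CPM in the young pair. Both differences were lost without either aged section, Ttr also without either 5xFAD section. Haemoglobin genes differed through 1 section, because the members of E3 aged held Hbb-bs at 516 CPM and Hba-a1 at 265 CPM against at most 30.0 and 7.49 CPM in the members of the other 5. The E4 differences were -2.02 ± 0.37 for Hbb-bs and -3.73 ± 0.63 for Hba-a1, and without E3 aged they became 1.83 and -0.26, and without E4 aged 1.83 and -0.27. Hbb-bs was also called for aged against young (2.52 ± 0.56), a call kept only without E4 aged, and it became -1.16 without E3 aged. The 5 blood genes summed to 1134 CPM in the members of E3 aged and 0 to 63.7 CPM elsewhere. Lypd1 (-2.12 ± 0.46, E4 against E3) was lost without any 1 of the aged and 5xFAD sections. Cbln4, a cerebellin of synapse organisation, was called for 5xFAD against young (2.68 ± 0.60), with 72.0, 0, 49.4 and 64.1 CPM in the members of E3 young, E4 young, E3 5xFAD and E4 5xFAD and 30.5, 84.1, 7.01 and 11.6 CPM in their Prkcd-rich spots. Without E4 young it was 2.11 and not called (adjusted p = 0.808), and the call was kept only without E3 young.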

How the data were processed

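UMI counts per gene and spot were deposited by the authors as Space Ranger matrices, one per section. Their processing notes name Space Ranger 1.3.0, STAR 2.5.1b, mm10 and GRCh38, and human APOE and APP were analysed with the mouse genes. Another item in the matrices is not reported here. Coordinates are from GENCODE vM21 for mm10. Spots inside the tissue mask with a barcode in the matrix and at least 1000 UMIs were used, and 1483 barcodes occur in all 6 matrices, since slides share a barcode set. No doublet call applies to spots. The 5xFAD pair carries another file prefix than the other 4 sections, so a batch there and the 5xFAD condition cannot be told apart.

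Counts were summed over members per section and tested with edgeR 4.0.16 (quasi-likelihood, TMM, filterByExpr, Benjamini-Hochberg, 0.05), with genotype and condition as additive terms. The region difference was fitted on 12 sums with section as a block. DESeq2 1.42.0 was an alternative. On simulated counts the member fit recovered 76.0% to 81.7% of log2 changes of 2 and 21.3% to 23.3% of changes of 1. The difference fit recovered 32.0% to 53.6% and 2.11% to 9.28%. The simulation gave every gene the same spread, that common to the member fit. Apart from the set changes, the sums differed only in depth, with no section or region effects. It is thus simpler than these data. Landmarks were the top 1% of all spots by mean log level of a gene list, members left out. The matrix headers name Space Ranger 2.0.0 for E3 5xFAD and 1.2.2 for the other 5 sections. Levels have exact Poisson and ratios exact binomial 95% intervals, which cover counting error only, as does the limit of 3 UMIs for a count of 0. Other computations used Python 3.11.15, numpy 2.4.6, pandas 2.3.3 and scipy 1.17.1. The members and gene lists were chosen with earlier results of these data known. Named are the rule genes, the 12 genes with the highest lowest log2 ratio over other spots among those with at least 20 CPM in the members of every section, the genes called with the same sign in each pair or, where under 5 were called, the 10 with the lowest p, and up to 4 genes per list. Gm47283 and Avp were called without that sign rule being met and are named for it.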

Additional observations from a re-analysis of the deposited data

Results flagged for a closer look

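The interaction test called a different effect of genotype or condition in Gbx2-rich and Prkcd-rich spots for 10 combinations of gene and contrast. DESeq2 called none of them, and each call was lost when some of the sections were left out singly. For E4 against E3 the log2 differences (members minus Prkcd-rich spots) were -1.24 for Calb2, 1.3 for Ttr, -3.73 for Hba-a1, 1.3 for Enpp2, -2.02 for Hbb-bs and -2.12 for Lypd1. For aged against young they were 2.52 for Hbb-bs and 0.96 for Calb2. For 5xFAD against young they were 1.19 for Calb2 and 2.68 for Cbln4. The Hbb-bs and Hba-a1 values came with haemoglobin UMIs in the members of E3 aged.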

How the results depend on the processing

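The numbers of genes called moved with most choices. For E4 against E3, aged against young and 5xFAD against young (7, 1 and 4 calls), DESeq2 gave 0, 0 and 1 and no filter on low counts 16, 6 and 6. A 92nd percentile score gave 43, 7 and 19, Prkcd below 1 per 10000 gave 0, 0 and 0, Prkcd below 6 gave 10, 5 and 19, and the percentile taken within each section 3, 0 and 11. Members with at least 2 member neighbours gave 17, 8 and 6, the largest connected patch 4, 0 and 0, and equal numbers of spots per section 0, 0 and 0. RLE size factors gave 10, 1 and 11. Spots within 3 spacings of the mask edge, chosen after seeing the data and leaving no spot of E4 young, gave 20, 7 and 9. Ignoring the tissue mask, also tried after seeing the data, gave 12, 2 and 9, with all 7, 1 and 4 among them. The 96th percentile, at least 3000 UMIs and totals over both genomes stayed within 1.5 times of each count. Leaving out 1 section gave 7 to 28, 3 to 7 and 2 to 18 calls. The differences between regions (6, 2 and 2) became 0 each with DESeq2, 6, 0 and 1 with no filter, and 0 to 6, 0 to 1 and 0 to 3 with 1 section left out. Avp ranged from -8.08 to 3.01, Hbb-bs from -3.65 to 1.83 for the E4 difference (1.83 without E3 aged or E4 aged), and from -1.16 to 9.42 for the aged difference. The members numbered 35 with Prkcd below 1 and 257 with Prkcd below 6. The cause of these changes was not tested.

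No paired analysis was possible because the labels carry no replicate numbers that pair sections, so sections are matched only through the terms of the fits (condition for genotype, and section for the regions). With 3 members, E4 young limits every contrast that uses it, and 2 residual degrees of freedom limit all of them.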

Other observations

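Receptor and channel genes that were chosen after their values were seen, and that were not tested, were higher in the Gbx2-rich than in other spots, although their lists were divided. In at least 5 sections 9 of 29 neuromodulator receptors were higher and 13 lower than in other spots, and 7 of 22 thalamic firing channels were higher and 11 lower, against 26.7% and 21.6% of all 8072 genes. Htr7, a serotonin receptor, had 69.0, 65.6 and 41.2 CPM in the young, aged and 5xFAD sections of E3 and 60.0 and 64.1 CPM in E4 aged and E4 5xFAD, with no UMI in E4 young. Other spots had 10.0 to 13.6 CPM of Htr7, and Prkcd-rich spots 26.7 to 41.0 CPM. Chrna4, a nicotinic receptor subunit, had 80.6 to 139 CPM against 33.8 to 49.3 CPM in other spots, and Cacna1g, the T-type calcium channel of thalamic burst firing, 124 to 224 CPM against 48.0 to 58.0 CPM. In Prkcd-rich spots Chrna4 had 111 to 196 CPM and Cacna1g 157 to 201 CPM.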
